A study of Arabidopsis thaliana with 48 samples.

Results

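Total small RNA from closed flower buds of Arabidopsis thaliana was compared between the atprmt5-2 mutant (2 libraries) and the wild type Col-0 (2 libraries), in the tables of 21 nt reads. These 4 tables of the 48 in the series each cover 428 annotated miRNAs. PRMT5 is a protein arginine methyltransferase, and the study asked how its loss affects the pool of small RNAs and what AGO1 binds. Plants were grown on soil in long days without treatment, and the libraries were described as biological duplicates. The nature of the atprmt5-2 lesion and whether buds of several plants were pooled are not stated in these sources. Since only miRNAs are tabulated, PRMT5 transcripts could not be checked in these libraries. Another mutant allele, atprmt5-6 (2 libraries), shares these wild-type libraries. It entered the statistical fit only to estimate the spread between replicates, and it counted in the abundance filter that chose the miRNAs tested.

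Plant miRNAs are cut by DCL1 from hairpin precursors as a duplex of guide and passenger strand. The guide is mostly loaded into AGO1, which prefers a 5′ U, and directs cleavage or repression of complementary transcripts. A few miRNAs start the production of secondary, phased siRNAs (phasiRNAs) from their targets. PRMT5 places symmetric dimethyl marks on arginines, among them those of Sm proteins of the spliceosome.

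Among 129 miRNAs abundant enough to be tested, 4 differed at a Benjamini-Hochberg adjusted p under 0.05 (limma), which is 3.1% of those tested. miR843 and miR5637 were higher in atprmt5-2 and miR858b and miR5017-5p were lower, 1.55% of those tested in each direction. No difference between a called miRNA and a relative was tested. The mature sequences of the 4 called miRNAs are given first, with those of related guides and of others described below. All are from RefSeq (TAIR10.1), written 5′ to 3′, with the seed (bases 2 to 8) in capitals.
miR843: uUUAGGUCgagcuucauugga
miR5637: aAUGCGCAacucuauauuucc
miR858b: uUCGUUGUcuguucgaccuug
miR858a: uUUCGUUGucuguucgaccuu
miR5017-5p: aUUUGUUAcuaauuuggaaug
miR161.1: uGAAAGUGacuacaucggggu
miR161.2: uCAAUGCAuugaaagugacua
miR165b: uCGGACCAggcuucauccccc
miR166f: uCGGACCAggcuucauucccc
miR163: uUGAAGAGgacuuggaacuucgau

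miR858a and miR858b lie on opposite strands of chromosome 1, at 26773695 to 26773715 on the minus strand (AT1G71002) and at 26772907 to 26772927 on the plus strand (AT1G09213), with 767 bases between them. Aligned, miR858a starts 1 base upstream of miR858b and shares 20 bases with it. Their seeds are therefore not the same run of letters. miR165b and miR166f share the seed CGGACCA and differ by C17U, counted from 1 at the 5′ end with the base of miR165b first. miR161.1 and miR161.2 come from a single precursor (AT1G48267, chromosome 1), at 17825731 to 17825751 and 17825722 to 17825742 on the plus strand. miR161.2 starts 9 bases upstream, and 12 bases are shared. miR843 lies on chromosome 3 at 17742147 to 17742167 on the plus strand (AT3G48057), outside other annotated genes. miR5637 lies on chromosome 2 at 12270341 to 12270361 on the minus strand (AT2G08275), within an intron of AT2G28620 on the same strand. miR5017-5p lies on chromosome 4 at 11963005 to 11963025 on the minus strand (AT4G07100), opposite an exon of AT4G22760. Per the submitters' processing notes the authors used TAIR10.

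Levels are in RPM, the reads of a miRNA scaled to a common total of 21 nt reads, so each is a share of the 21 nt pool of its library. The 21 nt reads numbered 1262818 and 1102524 in the atprmt5-2 libraries, against 571191 and 1318103 in wild type. At these depths 1 read was worth 0.792 and 0.907 RPM in atprmt5-2, and 1.75 and 0.759 RPM in wild type. Wild-type replicate 1 was thus the shallowest, with a floor of 3 reads at 5.25 RPM against 2.28 to 2.72 RPM in the other 3 libraries. For that library the deposited 23 nt table holds the same read numbers as its 21 nt table for all 195 listed miRNAs. In wild-type replicate 2 none of the 4 miRNAs listed at both lengths had the same read number. The 21 nt table was used as labelled.

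Of the 428 annotated miRNAs, 268 had a read in at least 1 of the 4 libraries and 153 in all 4. Reads in atprmt5-2 only were found for 20 miRNAs and reads in wild type only for 37, and among these miR5637 alone was abundant enough to test. The 129 tested miRNAs, with a mean of at least 5 RPM over the 6 total libraries, hold 97 distinct sequences. The remaining 139 with reads were not tested, and 160 had no read in these libraries. The 22 nt miR173-5p, which starts TAS1 and TAS2 siRNAs, is among those not tested, and the 20 nt miR156a-5p, which targets SPL transcripts, had 0 reads of 21 nt in all 4 libraries. A miRNA at 0 in one group can pass such a filter only through the others. The mean was under 5 RPM in wild type for 7 of the tested miRNAs and in atprmt5-2 for 6. Over the 4 compared libraries it was under 5 RPM for 3, which passed through atprmt5-6.

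miR5637 had 6.34 and 7.26 RPM in the atprmt5-2 libraries, 8 reads in each, against 0 reads in both wild-type libraries. It is the only miRNA with 0 reads in 1 of these groups and at least 10 reads in the other. Set against the level that 3 reads in the whole wild-type group would give, 1.59 RPM, it was at least 4.28-fold higher in atprmt5-2. The fitted log2 fold change was 2.96 (SE 0.58, limma adjusted p = 0.0424). This fitted value depends on the pseudocount. It passed the filter through the mutant libraries alone. Over the 4 compared libraries its mean was under 5 RPM, so it needed those of atprmt5-6 to pass. Without atprmt5-2 replicate 1 or 2 it stood at 3.05 and 2.87, and without either wild-type library at 2.96, and it was called in none of these 4 fits (limma adjusted p of 0.0514 to 0.38).

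miR843 had 70.5 and 15.4 RPM in the atprmt5-2 libraries, against 1.75 and 3.79 RPM in wild type, or 89 and 17 reads against 1 and 5. The lower mutant library lay above both wild-type libraries, although the mutant libraries differed from each other by more than the wild-type libraries did. Its log2 fold change was 3.24 (SE 0.70, limma adjusted p = 0.0473). With a wild-type mean of 2.77 RPM, under the minimum of 5 RPM, it too was tested only through the mutant libraries. Without atprmt5-2 replicate 1 it stood at 2.18, and without wild-type replicates 1 and 2 at 2.84 and 3.64, each time without a call. Without atprmt5-2 replicate 2 it was called at 4.30.

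miR858b, which guides the repression of MYB transcription factor transcripts, had 24.5 and 26.3 RPM in atprmt5-2, against 145 and 97.1 RPM in wild type. The groups were far apart and the mutant libraries nearly equal, giving a log2 fold change of -2.18 (SE 0.37, limma adjusted p = 0.0396). Without either mutant library it was still called, but without wild-type replicate 1 (-1.89) or 2 (-2.47) it was not. The overlapping guide miR858a had 68.1 and 88.9 RPM in atprmt5-2, against 317 and 156.3 RPM in wild type. Both mutant libraries again lay below both wild-type libraries, but the fold change did not pass (-1.50, SE 0.42, limma adjusted p = 0.128). How reads that match both annotated sites were assigned is not stated. In bulk buds, fewer cells that make a miRNA and less of it per cell cannot be told apart.

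miR5017-5p had 53.8 and 47.2 RPM in atprmt5-2, against 215 and 148 RPM in wild type. No library of the mutant reached the wild-type range, and the log2 fold change was -1.80 (SE 0.36, limma adjusted p = 0.0424). The call was lost without each of the 4 libraries in turn, at -1.90 and -1.71 without atprmt5-2 replicates 1 and 2, and at -1.53 and -2.07 without wild-type replicates 1 and 2. Its opposite arm, miR5017-3p, had 0 reads in both mutant libraries and 0 and 4 reads in wild type, so no fold change was computed for it.

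**Figure D1:**
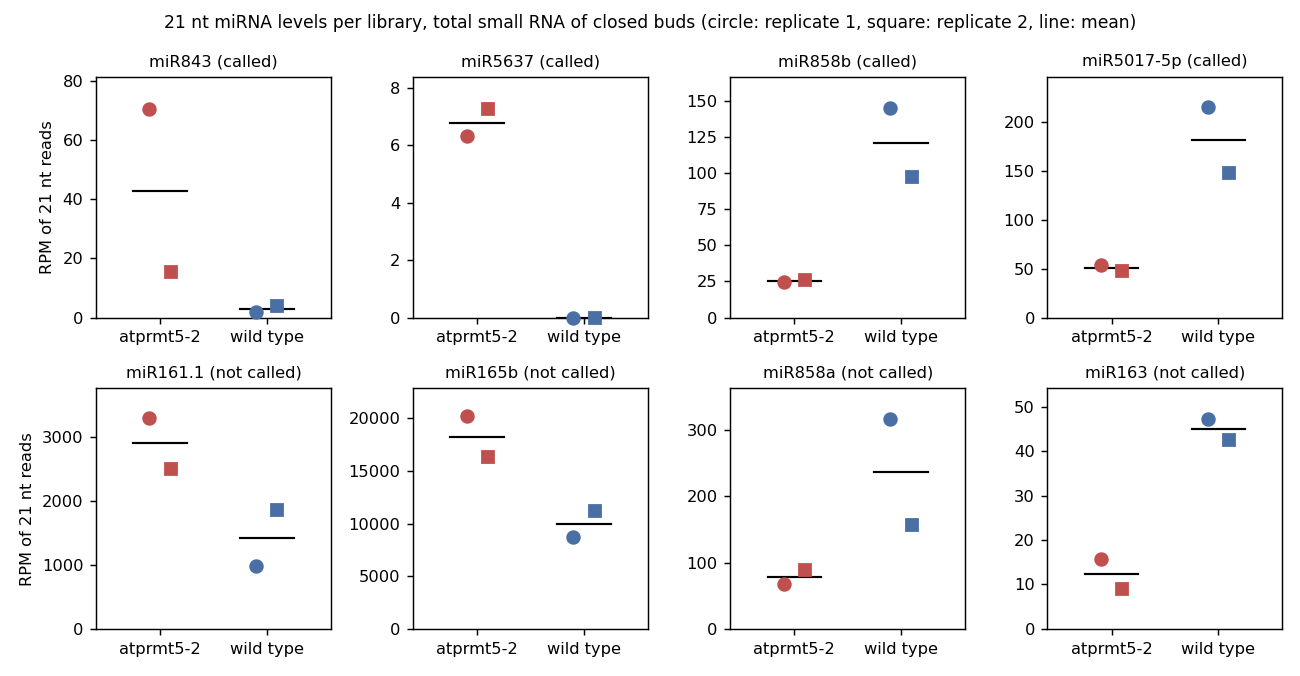
RPM of 21 nt reads in each library (y axis, linear from 0) for the 4 called miRNAs in the upper row and 4 that were not called in the lower row, atprmt5-2 in red and wild type in blue. Circles are replicate 1, squares replicate 2 and lines the mean of 2 libraries. The 8 miRNAs were picked for display. In all 8 panels the mutant and wild-type libraries do not overlap. Of all tested miRNAs, 45% lay below both wild-type libraries in this way and 6.98% above. miR843 shows the wide gap between 70.5 and 15.4 RPM within the mutant.

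The number of calls moved with the libraries and with the scaling. Without either wild-type library limma called 0 miRNAs, where 3 higher and 4 lower had an unadjusted p under 0.05 without replicate 1, and 5 and 15 without replicate 2. With all libraries and the deposited scaling it called 2 higher and 2 lower. Scaled to reads of annotated miRNAs, limma called 4 higher and 11 lower, and the count became 3 and 0 after centring each library on its median miRNA. With TMM factors it was 3 and 1 in limma, and with DESeq2 3 and 2. edgeR called 0 and 1 with the authors' denominators, and with TMM 0 and 0, where 19 higher and 11 lower had an unadjusted p under 0.05.

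In atprmt5-6, compared with the same wild-type libraries, miR843 had 125 and 67.4 RPM and miR5637 had 15.0 and 12.4 RPM. miR858b had 31.5 and 39.5 RPM there, and miR5017-5p had 35.1 and 43.4 RPM. The atprmt5-6 libraries lay outside the wild-type range on the same side as atprmt5-2 for each of the 4. The log2 fold changes in atprmt5-6 were 4.68, 3.87, -1.72 and -2.17 for miR843, miR5637, miR858b and miR5017-5p. Because the control libraries are shared, these values are not independent of those of atprmt5-2. miR5637 also needed the atprmt5-6 libraries to pass the filter. Its higher level in atprmt5-6 was therefore required by the selection and is not separate evidence.

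Over all tested miRNAs the balance leaned downwards on the RPM scale. The median log2 fold change was -0.44, with 93 values below 0 and 36 above. Both atprmt5-2 libraries lay below both wild-type libraries for 58 miRNAs, or 45% of those tested, and above both for 9, or 6.98%. At an unadjusted p under 0.05 (limma) there were 23 lower miRNAs, 17.8% of those tested, and 5 higher, 3.88%. This lean depends on the scaling. After centring each library on its median miRNA 54 values were below 0 and 75 above, with limma on TMM factors 62 and 67, and with DESeq2 size factors 63 and 66. Further values are given on the RPM scale and, where it matters, relative to the median of -0.44.

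**Figure D2:**
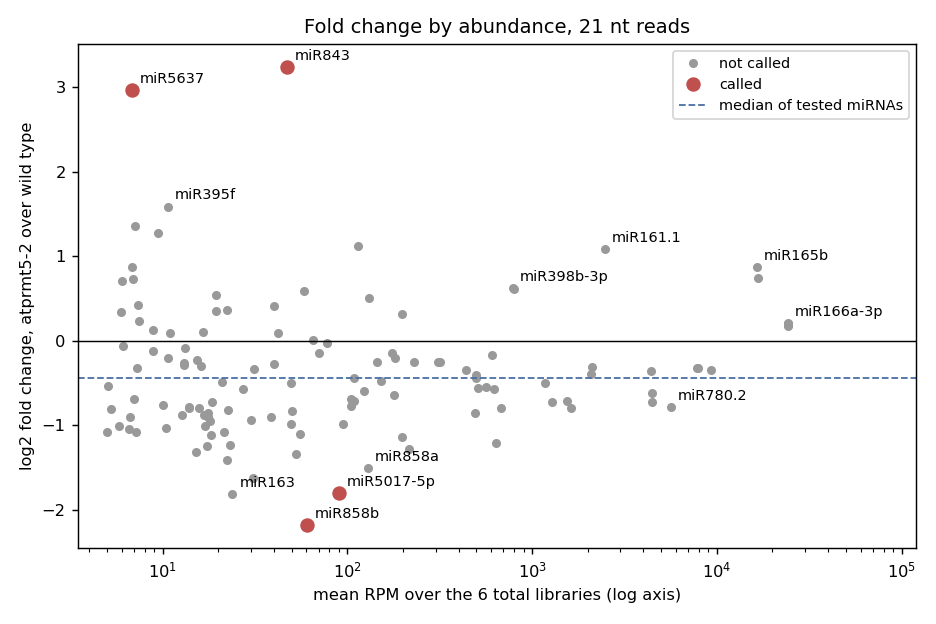
Log2 fold change of atprmt5-2 over wild type (y axis, log2(RPM + 1) scale) against mean RPM over the 6 total libraries (x axis, log scale) for the 129 tested miRNAs, with called miRNAs in red and the median of -0.44 as a dashed line. The 4 called miRNAs are of low to moderate abundance, and the miRNAs from 1000 RPM lie between -0.79 and 1.09.

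On the RPM scale the median was below 0 at every abundance. It was -0.32 for the 47 miRNAs from 5 RPM to under 20 RPM, -0.83 for the 28 from 20 RPM, -0.44 for the 31 from 100 RPM and -0.32 for the 23 from 1000 RPM. All 4 calls fell into the lower 2 of these classes, with 1 of 47 and 3 of 28. By the first base, the 86 miRNAs that start with U had a median of -0.42, the 22 with A -0.70, the 9 with G -0.48 and the 12 with C 0.32. The C class holds the 6 annotated copies of miR395, of which miR395a, miR395c, miR395e and miR395f were tested only through the mutant libraries. So was miR390a-3p of the same class. The 118 miRNAs annotated at 21 nt had a median of -0.38. The 9 annotated at 22 nt had -0.82 and the 2 at 24 nt -1.47, and their 21 nt reads are not the annotated form.

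miR163 is one of those 2. It targets transcripts of methyltransferases of the SABATH family, and its annotated form is 24 nt. Its 21 nt reads gave 15.8 and 9.07 RPM in atprmt5-2, against 47.3 and 42.5 RPM in wild type. The groups did not overlap, and the fold change did not pass (-1.81, SE 0.43, limma adjusted p = 0.067). limma called it lower when scaled to miRNA reads and, at -2.19, without atprmt5-2 replicate 1. miR867 had 15.8 and 18.1 RPM in atprmt5-2, against 71.8 and 41.0 RPM in wild type (-1.62, limma adjusted p = 0.128). miR2934-5p, a late-annotated miRNA named after its values were seen, had 36.4 and 29.9 RPM in atprmt5-2, against 77.0 and 94.1 RPM in wild type (-1.34, limma adjusted p = 0.0923). It was called lower when scaled to miRNA reads.

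The share of the whole miRNA pool did not separate the groups. Annotated miRNAs took 32.9% and 23.0% of the 21 nt reads in atprmt5-2, against 25.2% and 26.7% in wild type, means of 28.0% ± 7.005 and 26.0% ± 1.02 (SD, n = 2 each). The mutant libraries lay on either side of the wild-type pair, and the exact two-sided permutation test gave p = 1. With 2 libraries against 2 the smallest p is 0.333, so no single value of this kind can pass. The share within the pool differed more. The miR165 and miR166 guides, which target class III HD-ZIP transcripts and set leaf and organ polarity, took 77.6% and 76.7% of miRNA reads in atprmt5-2, against 64.2% and 70.6% in wild type (exact permutation p = 0.333). All other miRNAs together took 7.37% and 5.37% of the 21 nt reads in atprmt5-2, against 9.04% and 7.83% in wild type (exact permutation p = 0.333). Both differences separate the groups without overlap, which is the most that 4 libraries allow.

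Both sequences of that pair share a seed, and the difference between their values was not tested. miR165b had 20193 and 16285 RPM in atprmt5-2, against 8769 and 11240 RPM in wild type, a log2 fold change of 0.87 (SE 0.29) that did not pass in limma (adjusted p = 0.169). Its identical copy miR165a-3p stood at 0.74, and the copies summed were at 0.81 (limma adjusted p = 0.173). With limma on TMM factors, DESeq2, centring on the median or scaling to miRNA reads, miR165b was called higher, and with the last of these so was miR165a-3p. The miR166 sequence, which has 7 annotated copies, summed to 214610 and 145602 RPM in atprmt5-2, against 144603 and 164952 RPM in wild type. Here the groups overlapped, and the summed value was 0.19 (SE 0.26, limma adjusted p = 0.632). The 7 copies lay between 0.18 and 0.21, and turned below 0 when atprmt5-2 replicate 1 was left out. Reads of identical sequences were split over copies, so the 9 members of the HD-ZIP III list are 2 measurements. At the deposited scaling limma called 0 of the 9. It gave 1 an unadjusted p under 0.05, against 3.88% higher among all tested miRNAs. edgeR called 0. At an unadjusted p under 0.05 it had 1 of 9 on the authors' denominators and 9 of 9 with TMM. Among all 129 tested miRNAs 5 and 19 were higher there. DESeq2 called 1 of the 9, miR165b, where 3 of all 129 were called higher. All 9 were above 0 on the RPM scale, with a median of 0.20, against -0.44 for all tested miRNAs. It stayed above the median of all tested miRNAs under each scaling and without each library, by 0.39 to 0.90, while its sign turned without atprmt5-2 replicate 1.

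miR161.1, a guide against pentatricopeptide repeat mRNAs from which it starts phasiRNAs, had 3308 and 2510 RPM in atprmt5-2, against 984 and 1869 RPM in wild type. The groups did not overlap, but the fold change did not pass in limma (1.09, SE 0.39, adjusted p = 0.173). miR161.2, from the same precursor and with 12 of its bases, had 486 and 354 RPM in atprmt5-2, against 716 and 387 RPM in wild type. These ranges overlapped, at a log2 fold change of -0.34 that turned above 0 with centring, TMM or DESeq2. The difference between these 2 products was not tested.

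The other tested phasiRNA triggers lay below the median of all tested miRNAs. miR390a-5p, which acts with AGO7 on TAS3 transcripts, had 1341 and 866 RPM in atprmt5-2, against 1971 and 1601 RPM in wild type (-0.72, limma adjusted p = 0.291). miR393a-5p, against transcripts of auxin receptors of the TIR1 class, had 12.7 and 7.26 RPM in atprmt5-2, against 33.3 and 17.4 RPM in wild type (-1.24, limma adjusted p = 0.178). The annotated form of miR393a-5p and of its identical copy miR393b-5p is 22 nt, so the reads counted here are not that form. Both are among the 7 tested triggers counted below. miR400, which also targets pentatricopeptide repeat transcripts, had 7.13 and 2.72 RPM in atprmt5-2, against 8.75 and 12.1 RPM in wild type (-1.04, limma adjusted p = 0.301). Of 7 tested triggers limma, edgeR and DESeq2 called 0. limma gave 1 higher and 1 lower an unadjusted p under 0.05, against 3.88% and 17.8% of all tested miRNAs. On the RPM scale 6 of the 7 lay below 0, and the median was -0.72, which was -0.28 relative to all tested miRNAs. Under centring 4 of the 7 lay below 0, and with TMM or DESeq2 5.

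The guides against the silencing machinery itself had a list median close to that of all tested miRNAs. miR168a-5p, which targets AGO1 mRNA, had 1312 and 1238 RPM in atprmt5-2, against 2572 and 1691 RPM in wild type (-0.71, SE 0.34, limma adjusted p = 0.262). Mutant and wild-type libraries did not overlap, and summed with its identical copy miR168b-5p the value was -0.75 (limma adjusted p = 0.203). miR162a-3p, the guide against DCL1 mRNA, had 2232 and 1720 RPM in atprmt5-2, against 2745 and 2410 RPM in wild type (-0.39). miR403-3p, the guide against AGO2 mRNA, had 4743 and 3452 RPM in atprmt5-2, against 5840 and 4628 RPM in wild type (-0.36), and here the ranges overlapped. limma, edgeR and DESeq2 called 0 of the 5 members, where limma called 3.1% of all tested miRNAs. In limma 0 had an unadjusted p under 0.05, against 17.8% lower and 3.88% higher among all tested miRNAs. edgeR on the authors' denominators had 1 of the 5 lower at an unadjusted p under 0.05, and 20 of all 129. The median of the 5 members, -0.39, was 0.047 above that of all tested miRNAs. The miR162 and miR403 guides, 3 of the 5, turned above 0 with centring, TMM or DESeq2.

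**Figure D3:**
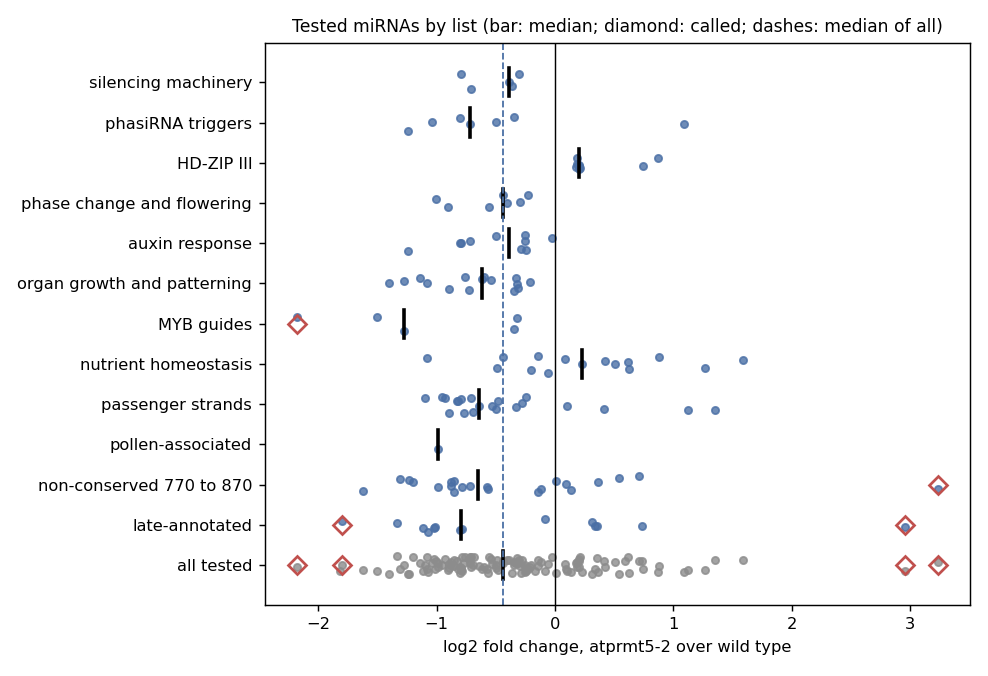
Log2 fold change of atprmt5-2 over wild type (x axis) for the tested members of each miRNA list (rows) and for all 129 tested miRNAs (bottom row), with black bars at the medians and the median of all, -0.44, as a dashed line. Diamonds mark the 4 called miRNAs. The HD-ZIP III and nutrient homeostasis lists have medians above 0, and the MYB guides have the lowest median of the lists with more than 1 tested member, -1.28. In the nutrient homeostasis list miR395a, miR395c, miR395e and miR395f were tested only through the mutant libraries.

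The MYB guides had 1 of 5 tested members called, miR858b, where 1.55% of all tested miRNAs were called lower. Their median was -1.28, which was -0.84 relative to all tested miRNAs and between -0.94 and -0.68 without 1 library. Apart from miR858a and miR858b, the list holds the miR159 family, which acts on GAMYB-like transcripts important in anthers and seeds. Its 3 sequences share the seed UUGGAUU and differ at the 3′ end, by A21U between miR159a and miR159b-3p and by U20C and A21U between miR159a and miR159c, with the base of miR159a first.
miR159a: uUUGGAUUgaagggagcucua
miR159b-3p: uUUGGAUUgaagggagcucuu
miR159c: uUUGGAUUgaagggagcuccu
miR159a had 7610 and 6900 RPM in atprmt5-2, against 10368 and 7893 RPM in wild type, and miR159b-3p was at -0.34. The fold change of miR159a was -0.32 (limma adjusted p = 0.508), and both turned above 0 with centring, TMM or DESeq2. The rarer miR159c, named after its values were seen, had 188 and 118 RPM in atprmt5-2, against 436 and 301 RPM in wild type (-1.28, SE 0.39, limma adjusted p = 0.146).

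In the organ growth and patterning list all 15 tested members, 12 distinct sequences, lay below 0 on the RPM scale. The miR159 family is part of this list too, so its values are counted both here and among the MYB guides. At the deposited scaling limma called 0 of the 15 and gave 6 an unadjusted p under 0.05, a share to be read against 17.8% lower among all tested miRNAs. edgeR and DESeq2 also called 0. Scaled to miRNA reads, limma called 4 lower, the identical copies miR171b-3p and miR171c-3p and the identical copies miR319a and miR319b. Both mutant libraries lay below both wild-type libraries for 11 of the 15, where this held for 45% of all tested miRNAs. The median was -0.62, which was -0.18 relative to all tested miRNAs and between -0.29 and -0.22 without 1 library. With DESeq2 or TMM 10 of the 15 lay below 0, and with centring 9. miR171b-3p, which targets GRAS-domain regulators of the HAIRY MERISTEM class, had 18.2 and 9.98 RPM in atprmt5-2, against 40.3 and 34.9 RPM in wild type (-1.41, SE 0.42, limma adjusted p = 0.139). Summed with its identical copy miR171c-3p it was at -1.28 (limma adjusted p = 0.108). miR319a, a guide against TCP transcripts that shape leaves and petals, had 4749 and 3125 RPM in atprmt5-2, against 6094 and 5714 RPM in wild type (-0.62, limma adjusted p = 0.283). miR319c, which differs from it by C20U with the base of miR319a first, stood at -1.14. miR164a, which targets CUC boundary genes of the NAC family, had 5.54 and 7.26 RPM in atprmt5-2, against 21.0 and 6.07 RPM in wild type, and the groups overlapped. miR396a-5p and miR396b-5p, against growth-regulating factors, stood at -0.54 and -0.33. miR396a-5p turned above 0 with centring, and miR396b-5p with centring, TMM or DESeq2.

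The lists of phase change and flowering and of auxin response had medians near that of all tested miRNAs. miR157a-5p, which limits SPL transcripts in young plants, had 580 and 334 RPM in atprmt5-2, against 809 and 518 RPM in wild type (-0.56, limma adjusted p = 0.466). The ranges overlapped. miR172a, which acts on AP2-like transcripts of flowers, had 16.6 and 16.3 RPM in atprmt5-2, against 19.3 and 19.7 RPM in wild type (-0.23). Its identical copy miR172b-3p was at -1.01, and summed they were at -0.64 (limma adjusted p = 0.298). The phase change and flowering list had 0 calls among 7 tested members in limma, edgeR and DESeq2, and a median of -0.44. In limma 1 was lower at an unadjusted p under 0.05, against 17.8% of all tested miRNAs. With TMM or DESeq2 4 of the 7 lay above 0, and with centring 5. miR160a-5p and miR167a-5p, against auxin response factors, stood at -0.29 and -0.25. The auxin response list had 0 calls among 10 in limma, edgeR and DESeq2, and a median of -0.39. Of its 10 members 5 or 6 turned above 0 with TMM, DESeq2 or centring. In limma 1 was lower at an unadjusted p under 0.05, against 17.8% of all tested miRNAs. That member was miR393a-5p. The miR390 and miR393 guides of this list are also counted among the phasiRNA triggers.

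The nutrient homeostasis list was the other list with a median above 0. limma, edgeR and DESeq2 called 0 of its 15 tested members. In limma 1 was higher at an unadjusted p under 0.05, against 3.88% of all tested miRNAs. On the RPM scale 9 of the 15 lay above 0 with a median of 0.23, which was 0.67 above that of all tested miRNAs. Among them miR395a, miR395c, miR395e and miR395f had wild-type means of 2.89, 4.14, 4.14 and 3.65 RPM, under the minimum of 5 RPM. They were tested only through the mutant libraries, so the filter favoured their values above 0 and, with them, a higher list median. Without atprmt5-2 replicate 1 the median was -0.093, and without replicate 2 it was 0.12, which was 0.27 above that of all tested miRNAs. The 6 copies of miR395, which is induced by sulfate shortage and limits ATP sulfurylases and a sulfate transporter, hold 2 sequences that share the seed UGAAGUG and differ by A17G, with the base of miR395a first.
miR395a: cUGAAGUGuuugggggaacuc
miR395f: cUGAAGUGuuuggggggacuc
miR395f had 8.71 and 19.0 RPM in atprmt5-2, against 3.501 and 3.793 RPM in wild type (1.59, SE 0.58, limma adjusted p = 0.173), and miR395c, the same sequence, stood at 1.27. Summed over its 3 copies this sequence had 19.8 and 48.1 RPM in atprmt5-2, against 14.0 and 12.9 RPM in wild type (1.15, limma adjusted p = 0.26). The miR395a sequence summed to 13.5 and 25.4 RPM in atprmt5-2, against 14.0 and 13.7 RPM in wild type (0.40), and here the groups overlapped.

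The copper guides had no such separation. miR398b-3p, which targets copper/zinc superoxide dismutase transcripts, had 1758 and 372 RPM in atprmt5-2, against 618 and 444 RPM in wild type (0.63, SE 1.02, limma adjusted p = 0.681). The mutant libraries enclosed the wild-type pair. miR408-3p, against laccase and plantacyanin transcripts, had 251 and 87.1 RPM in atprmt5-2, against 137 and 78.9 RPM in wild type (0.51). Both values turned below 0 without atprmt5-2 replicate 1. miR398a-5p, a passenger strand, ran the other way between replicates, with 30.1 and 131 RPM in atprmt5-2, against 52.5 and 15.2 RPM in wild type (1.12, SE 1.37). The phosphate guides miR399b and miR827, against transcripts that limit phosphate uptake, stood at -0.14 and -0.44. miR399b had 172.6 and 169.6 RPM in atprmt5-2, against 203 and 176 RPM in wild type.

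**Figure D4:**
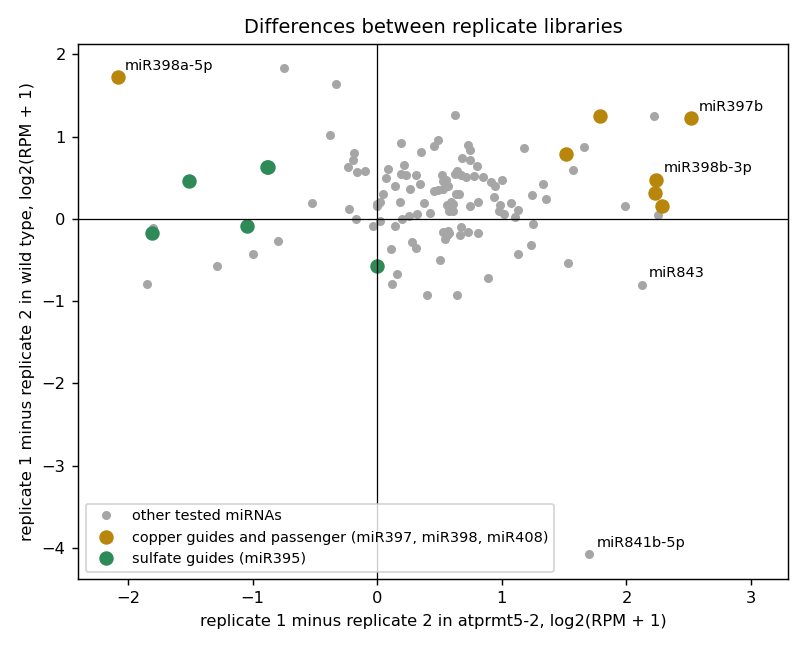
Replicate 1 minus replicate 2 on the log2(RPM + 1) scale within atprmt5-2 (x axis) and within wild type (y axis) for the 129 tested miRNAs, with copper-related miRNAs in ochre and miR395 copies in green. Most points lie right of 0, since atprmt5-2 replicate 1 was higher for 103 miRNAs, and the copper guides lie far right while miR398a-5p lies far left.

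Replicate 1 of atprmt5-2 exceeded replicate 2 for 103 of the 129 tested miRNAs, with a median log2 difference of 0.55 and more than 2-fold for 33. In wild type replicate 1 exceeded replicate 2 for 90, with a median of 0.21 and more than 2-fold for 9. The largest gap within atprmt5-2 was that of miR397b, a copper guide against laccase transcripts, at 41.2 and 6.35 RPM, with 36.8 and 15.2 RPM in wild type. The log2 fold change of miR397b was -0.49 with an SE of 1.06, where the SE of miR858b was 0.37.

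Passenger strands took 0.814% and 0.662% of miRNA reads in atprmt5-2, against 1.24% and 1.01% in wild type (exact permutation p = 0.333). Of 21 tested passenger strands of conserved precursors limma at the deposited scaling, edgeR and DESeq2 called 0. In limma 2 were lower at an unadjusted p under 0.05, against 17.8% of all tested miRNAs. Scaled to miRNA reads, limma called miR171b-5p lower. On the RPM scale 17 lay below 0, with a median of -0.64, which was -0.20 relative to all tested miRNAs. Without atprmt5-2 replicate 2 the median was -0.15, which was 0.0018 above that of all tested miRNAs, and 13 of the 21 lay below 0. With centring 11 of the 21 lay below 0. For 19 precursors both arms were tested. The arms of miR168a stood close together, at -0.71 for the 5p guide and -0.79 for the 3p passenger. Those of miR165a stood apart, at 0.74 for the 3p guide and -0.93 for the 5p passenger, which had 39.6 and 12.7 RPM in atprmt5-2, against 54.3 and 35.7 RPM in wild type. miR390a had the widest gap, at -0.72 for the 5p guide and 1.35 for the 3p passenger, with 5.54 and 9.98 RPM for miR390a-3p in atprmt5-2, against 5.25 and 0.759 RPM in wild type. Those wild-type levels are 3 reads and 1 read. With a wild-type mean of 3.01 RPM, under the minimum of 5 RPM, miR390a-3p was tested only through the mutant libraries. The filter thus favoured a value above 0 for this arm. The differences between arms were not tested.

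In the list of less conserved miRNAs from miR770 to miR870, 1 of 22 tested members was called, miR843, against 3.1% of all tested miRNAs. On the RPM scale 15 of the 22 lay below 0, with a median of -0.65, and with centring 11. Relative to all tested miRNAs the median was -0.21, and between -0.33 and -0.13 without 1 library. The late-annotated list had 2 calls among 14, miR5637 and miR5017-5p, also against 3.1%, and whether these lists differ from the rest was not tested. miR843 and miR5637 were tested only through the mutant libraries, so their calls are not evidence about their lists. The median of the late-annotated list was -0.80 and 9 of the 14 lay below 0. The median was -0.22 without atprmt5-2 replicate 1 and -0.53 without wild-type replicate 2, and relative to all tested miRNAs it turned to 0.41 and 0.071, against -0.36 with all libraries. With centring, TMM or DESeq2, 6 of these 14 lay above 0, against 5 on the RPM scale. The most abundant of the less conserved miRNAs, miR780.2, had 5480 and 3905 RPM in atprmt5-2, against 9006 and 7059 RPM in wild type (-0.79, SE 0.32, limma adjusted p = 0.209), and the groups did not overlap. It was named after its values were seen, and limma called it lower when scaled to miRNA reads, with miR860 of the same list. miR845a, which in pollen targets transposon transcripts, had 37.2 and 38.1 RPM in atprmt5-2, against 73.5 and 78.1 RPM in wild type. Replicates were nearly equal in both genotypes and the groups did not overlap, but the fold change of -0.99 (SE 0.35) did not pass in limma (adjusted p = 0.173). It stayed below 0 under every scaling and without each library.

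**Figure D5:**
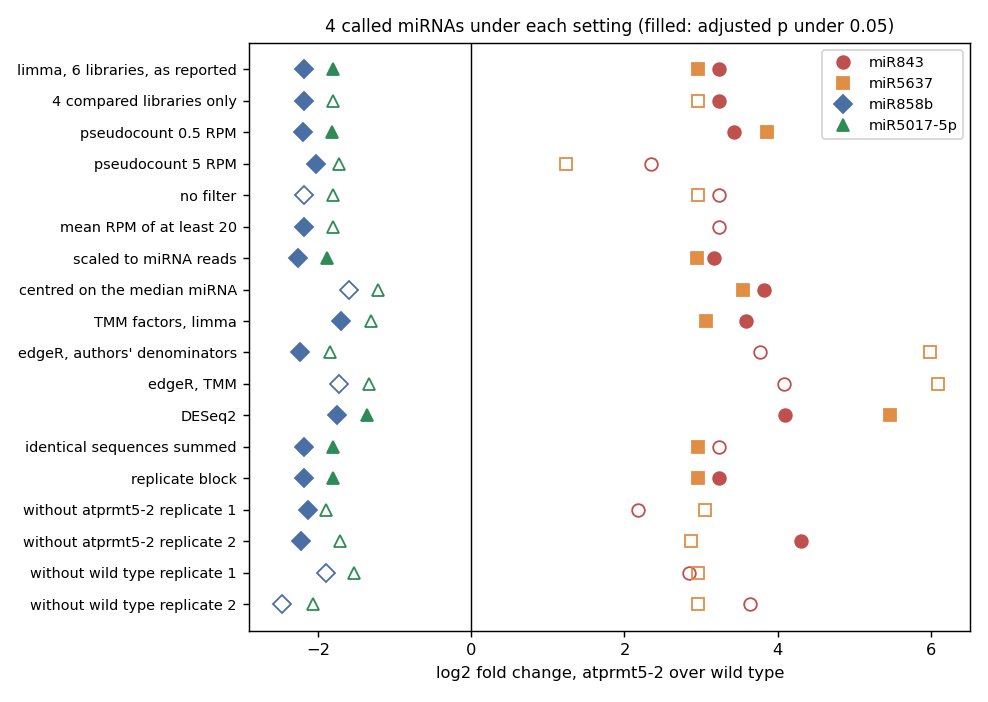
Log2 fold change of atprmt5-2 over wild type (x axis) of the 4 called miRNAs under the reported fit and 17 alternatives (rows), filled where the adjusted p was under 0.05 and open where not. miR5637 had 0 reads in wild type, so leaving out a library could not move it across 0. No point crosses 0, miR858b is filled in 12 of the 17 alternatives, and all 4 are open in both rows that leave out a wild-type library.

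The 4 called miRNAs kept their direction under each alternative that could be fitted. With 0 reads in both wild-type libraries, miR5637 could not turn with another pseudocount or without a library. miR843 and miR5637 passed the filter only through mutant libraries, so their kept direction is not separate evidence. miR858b ran from -2.47 to -1.60 and was called in 12 of 17. miR843 ran from 2.18 to 4.30 and was called in 8 of 17. miR5637 ran from 1.24 to 6.09 and was called in 7 of 16, since a minimum of 20 RPM leaves it out. miR5017-5p ran from -2.07 to -1.22 and was called in 5 of 17.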

How the data were processed

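The tables compared hold RPM values of 21 nt reads for 428 annotated miRNAs, 2 libraries each of atprmt5-2 and wild type (groups and replicate numbers from the titles). The deposited RPM of the authors were whole multiples of the worth of 1 read, within 0.01 reads, for 100% of values. Read numbers and each denominator, taken as the 21 nt reads of the library, were recovered from them. Missing values were read as 0. The submitters' processing notes name Trimmomatic 0.36, Bowtie2, SAMtools 1.9 and TAIR10 without roles, and do not say how reads with several matching sites were counted.

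The main test was limma 3.58.1 (R 4.3.3) with an intensity trend on log2(RPM + 1), over miRNAs with a mean of at least 5 RPM in the 6 total libraries, which understates changes of low miRNAs. The fit had 3 groups (atprmt5-2, atprmt5-6, wild type), no block and 3 residual degrees of freedom, so the spread of atprmt5-6 is assumed to be like that of the others. P-values were adjusted by Benjamini-Hochberg, with calls under 0.05. They measure the spread between these libraries. Alternatives were other pseudocounts, filters and scalings, edgeR 4.0.16 and DESeq2 1.42.0 on recovered reads, summed identical sequences, a replicate block and leaving out each library. Single values were compared by exact two-sided permutation over 4 libraries. Replicates of the same genotype do not repeat each other (chi-square over degrees of freedom of 136.5 between the atprmt5-2 replicates and 18.5 between the wild-type replicates). Other pairs of libraries were not compared in this way.

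miRNA names were matched to RefSeq TAIR10.1 for 427 of 428 (miR10515 was not matched). The members and the miRNA lists were chosen with earlier results of these data known, and some lists share members. Named are the called miRNAs, the 4 largest uncalled changes per direction, the 6 most abundant sequences in wild type, a set of guides of known targets with their copies and opposite arms, and miRNAs at 0 reads in one group with at least 10 in the other. miR8183 was read but not tested.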

Additional observations from a re-analysis of the deposited data

How the results depend on the processing

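The reported fit called 2 miRNAs higher and 2 lower in atprmt5-2, and every count is small. limma on the 4 compared libraries alone called 1 and 1. A pseudocount of 5 RPM gave 0 higher and 1 lower, a minimum of 20 RPM 0 and 1, and no filter 0 and 0 of 277 tested (7 and 34 at an unadjusted p under 0.05 in limma). Scaling to miRNA reads gave 4 higher and 11 lower, centring 3 and 0, and TMM factors in limma 3 and 1. edgeR gave 0 and 1 with the authors' denominators and 0 and 0 with TMM (19 and 11 at an unadjusted p under 0.05), and DESeq2 gave 3 and 2. Summing identical sequences gave 1 higher and 2 lower. A pseudocount of 0.5 RPM called the same 4. Leaving out 1 library gave 0 to 1 higher and 0 to 2 lower. The cause of these moves was not tested. Removing the filter adds miRNAs to the adjustment, and leaving out a library removes a degree of freedom, but their share in the moves was not tested. The replicate block gave 2 higher and 8 lower. With 2 pairs the numbers could not be shown to pair the libraries (correlation of same-numbered deviations -0.041 across 129 miRNAs), so they were taken as numbers only.

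The median log2 fold change of -0.44 turned to 0.14 after centring, 0.052 with TMM in limma, 0.081 with TMM in edgeR and 0.048 with DESeq2, and ran from -0.63 to -0.15 without 1 library. Of 69 named miRNAs that were not called, 25, 21, 20 and 20 turned above 0 under centring, TMM in limma, TMM in edgeR and DESeq2. Without atprmt5-2 replicate 1, 11 turned below 0. The 571191 reads of wild-type replicate 1 limit what can be said of miRNAs under 5.25 RPM.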

Other observations

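Some miRNAs outside the test had low values that separate the libraries. They are described here with no test and were chosen after their values were seen. How many of the 139 untested miRNAs with reads separate the groups in this way was not counted. Of the tested miRNAs 45% lay below both wild-type libraries in both atprmt5-2 libraries and 6.98% above. miR8183 had 1 and 1 read in the atprmt5-2 libraries, 0.792 and 0.907 RPM, against 5 and 9 reads in wild type, 8.75 and 6.83 RPM. miR868-5p had 0 and 2 reads in atprmt5-2, against 6 and 10 in wild type. In the other direction, miR5029 had 8 and 7 reads in atprmt5-2, 6.34 and 6.35 RPM, against 2 and 4 reads in wild type, 3.501 and 3.03 RPM. These wild-type levels are near the floor of 3 reads. miR171c-5p had 2 and 3 reads in atprmt5-2, 1.58 and 2.72 RPM, against 2 and 20 reads in wild type, 3.501 and 15.2 RPM. Its groups do not overlap in RPM, but the lower wild-type value rests on 2 reads.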
